A study of Mus musculus with 50 samples.

Results

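The comparison described here is between 6 digits of the wound bed RNA-seq series, the 3 non-regenerative digits collected 12 h after amputation and the 3 collected immediately at amputation (0 h), out of 50 samples in all. They were chosen by their labels alone, which give NR, the time point and the amputation level. The series holds 29 non-regenerative digits at 9 time points, 12 intermediate digits and 9 macrophage cultures. Each library is from the distal terminal phalanx (P3, the last bone of the digit with its nail and skin) of male C57Bl/6 mice of 9 to 10 weeks, with no genetic change or test compound in either group, after amputation under isoflurane through P3 of digit 3 of the hindlimb. The labels describe the material as mixed cell types around the wound bed. Non-regenerative stands for amputation of more than 67% of P3 in the study's methods, but the labelled levels were 62%, 62% and 75% in digits 1, 2 and 3 at 0 h and 64%, 64% and 67% at 12 h. All 3 digits at 12 h and digit 1 at 0 h carry the date of 20 July 2015, while digits 2 and 3 at 0 h carry 30 November 2015. What that date marks is not stated.

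After a digit is cut, the skin and nail epithelium at the margin starts to migrate over the wound, and damaged cells release signals that draw neutrophils and then monocytes out of the blood. Chemokines are the small secreted proteins that guide this traffic, cytokines such as interleukins pass the alarm between cells, and NF-kB and AP-1 are transcription factor families that respond to such signals. In parallel the epidermis changes its keratins and its attachment to the basement membrane, and matrix-degrading enzymes open a path through clot and dermis. Bone, nail matrix and connective tissue of the phalanx contribute RNA to the same libraries.

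Total expected counts per digit ran from 4747702 to 10608244. Values below are normalized counts, which are rounded expected counts scaled between the 6 libraries by TMM, and they are given in the order of digits 1, 2 and 3, with 0 h before 12 h. Digit 1 at 0 h stood apart from the other digits at 0 h, with a chi-square over genes of 80.9 and 73.0 per degree of freedom against digits 2 and 3, compared with 10.2 between digits 2 and 3 and 13.4 to 24.2 within the 12 h group. Its hard keratins of nail and hair took 0.653% of all counts against 0.0298% and 0.1201%, and its platelet genes 0.0900% against 0.0168% and 0.0116%. Epidermal keratins took 5.65% to 10.3% of the counts at 0 h and 6.44% to 8.62% at 12 h, and bone was represented by Ibsp (bone sialoprotein), with 401, 339 and 248.7 normalized counts at 0 h and 177, 422 and 175 at 12 h.

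To find which genes differed between 12 h and 0 h, 13075 genes entered edgeR's quasi-likelihood test. Calls needed a Benjamini-Hochberg adjusted p under 0.05, and the group means of the normalized counts, each plus 1, had to differ by more than 2-fold. Of the genes tested, 884 were called higher at 12 h, which is 6.76%, and 607 were called lower, which is 4.64%. Counts of called list members below are to be read beside these shares. The rises were larger than the falls, with 338 genes more than 4-fold higher against 130 lower, 92 against 6 beyond 16-fold, and 50 against 2 beyond 32-fold. The digits of the 2 groups did not overlap in 884 of the genes called higher and 596 of those called lower, while 42.3% of all tested genes showed no overlap. The median log2 fold change over all tested genes was -0.03. Without digit 1 at 0 h, the counts were 1096 higher and 798 lower. That fit, also used below, sets 0 h digits dated 30 November 2015 against 12 h digits dated 20 July 2015. Time and label date cannot be told apart in it. Leaving out digit 2 or digit 3 at 0 h left 567 and 566 higher and 238 lower in each case, and leaving out digit 1 or digit 3 at 12 h left 335 and 222 lower. Against the 3 digits at 0 h dated 20 July 2015, of which 1 is non-regenerative and 2 are intermediate, the counts were 881 higher and 770 lower. DESeq2 gave 995 and 1004. A fit over all 29 non-regenerative digits gave 178 higher and 34 lower, and a fit over all digits with the label period as a term gave 201 and 100. In the former, 47 of the counts of list members called higher or lower moved by more than 1.5-fold, and 39 did not.

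**Figure D1:**
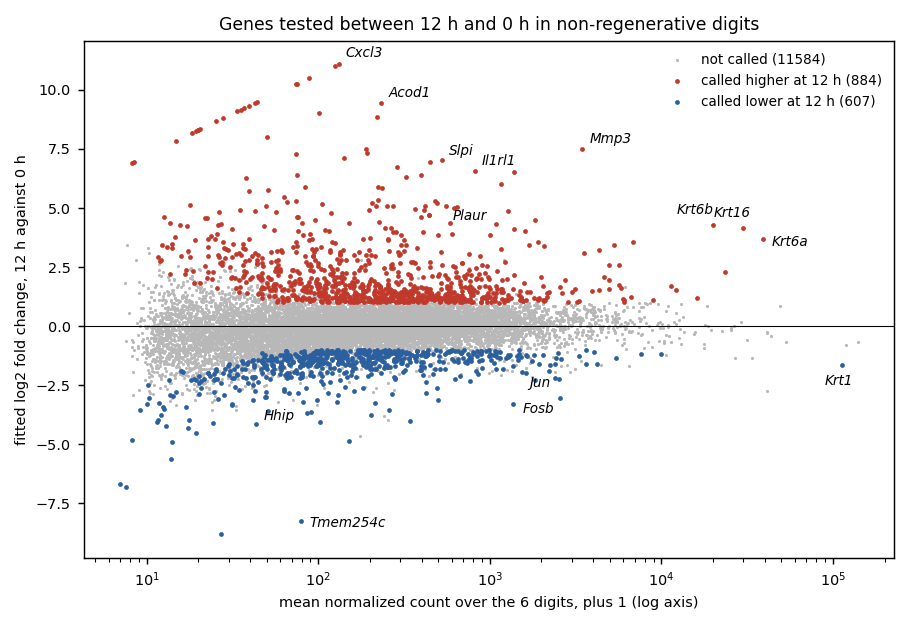
Fitted log2 fold change between 12 h and 0 h (vertical axis) against the mean normalized count over the 6 digits plus 1 (horizontal axis, log scale), 1 point per gene tested. Red points are the 884 genes called higher at 12 h and blue points the 607 called lower, and the largest changes lie on the side of the rises.

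The largest rises and falls were taken only from called genes without overlap of digits and with a mean of at least 100 normalized counts. The 12 largest rises were Cxcl3, Lce3b, Il24, Ccl4, Acod1, Clec4e, S100a8, Mmp3, Cxcl5, Trem1, Mmp10 and Ccl2. They are mostly chemokines, a cytokine and genes of innate immune cells, joined by the stromelysins Mmp3 and Mmp10 and by Lce3b of the late cornified envelope. Mmp3 (ENSMUSG00000043613, chr9:7445822-7455975, plus strand) had 39.8, 17.8 and 55.2 normalized counts at 0 h and 4821, 7326 and 8439 at 12 h (log2 fold change 7.52 ± 0.49 (SE), edgeR adjusted p = 0.00023). It had 134 expected counts at 0 h, whereas Cxcl3, Lce3b, Il24 and Ccl4 were at 0 counts in all 3 digits at 0 h. Acod1, which makes the antimicrobial metabolite itaconate, had 2 counts in all at 0 h and 670.2, 241 and 481 normalized counts at 12 h, a ratio of 787 (95% interval 217 to 6505).

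Among the 12 largest falls were Tmem254c, Tubb1, Ppbp, Nrgn, Hhip, Hbb-bt, Fosb, Cd248, Sdpr, Apcdd1 and Abca8a. Tubb1 and Ppbp (platelet proteins) and Hbb-bt (a beta globin) are genes of blood cells, while Cd248 (endosialin) marks stromal and perivascular cells. Cd248 (ENSMUSG00000056481, chr19:5068078-5070682, plus strand) had 349, 388 and 431 normalized counts at 0 h and 8.48, 79.7 and 29.1 at 12 h (log2 fold change -3.25 ± 0.58 (SE), edgeR adjusted p = 0.0091). For Abca8a, a lipid transporter of the ABC family, the values were 201, 154 and 168 at 0 h and 17.0, 23.9 and 17.2 at 12 h (log2 fold change -3.14 ± 0.28 (SE), edgeR adjusted p = 0.00068). Apcdd1, a membrane inhibitor of Wnt signaling, had 168, 143 and 127 and 7.07, 31.0 and 6.61 (log2 fold change -3.20 ± 0.54 (SE), edgeR adjusted p = 0.0076). In all 3 genes every digit at 12 h was below every digit at 0 h, which the rule for this list required. Tmem254c is uncertain, since it shares reads with near-identical copies: Tmem254a and Tmem254b were listed with equal counts in all 41 digits, and Tmem254c was under 1 count in 9 of the 41, including digits of other groups.

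**Figure D2:**
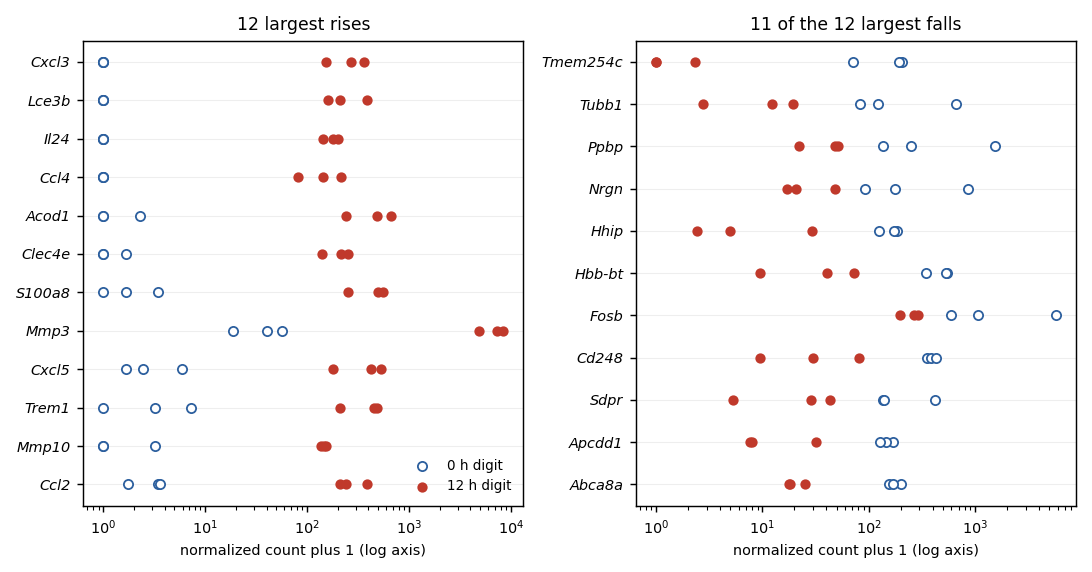
Normalized count plus 1 (log axis) of the 12 largest rises and 11 of the 12 largest falls in each digit, with open blue circles for the 3 digits at 0 h and filled red circles for the 3 at 12 h. The groups are separated in every row because only genes without overlap of digits were eligible. In Tubb1, Ppbp, Nrgn and Fosb digit 1 at 0 h lies far above the other digits at 0 h.

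Of 14 CXC and CX3C chemokines listed, 10 passed the count filter, and 5 were called higher, which are Cxcl1, Cxcl2, Cxcl3, Cxcl5 and Cxcl16. Of these 5, 2 were among the 7 that reached the count minimum of the filter in every digit at 0 h. The platelet gene Ppbp, described below with blood cell genes, was the 1 called lower. Cxcl1, Cxcl2, Cxcl3, Cxcl5 and Ppbp encode ligands of the neutrophil receptor Cxcr2, and Cxcl16 encodes a ligand of Cxcr6. Cxcl3 (ENSMUSG00000029379, chr5:90786103-90789600, plus strand) went from 0 in every digit to 358, 153 and 271 normalized counts and was at least 69.9-fold higher (edgeR adjusted p = 0.00083). Cxcl2 went from 98.2, 8.59 and 8.83 to 2548, 1513 and 2778 normalized counts (log2 fold change 6.01 ± 0.92 (SE), edgeR adjusted p = 0.0054). Digit 1 at 0 h was the highest of its group in Cxcl2, and the lowest digit at 12 h was still far above it. Cxcl1 had 342, 87.9 and 53.7 normalized counts at 0 h and 1599, 3625 and 5349 at 12 h (log2 fold change 4.47 ± 0.76 (SE), edgeR adjusted p = 0.0076). Cxcl5 had 4.97, 0.66 and 1.47 and 178, 524 and 418 (log2 fold change 7.49 ± 0.65 (SE), edgeR adjusted p = 0.00059). Cxcl12, a chemokine made constitutively by stromal cells, had 665, 352 and 385 at 0 h and 232, 813 and 578 at 12 h, and its groups overlapped (log2 fold change 0.22 ± 0.42 (SE), edgeR adjusted p = 0.75).

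The promoters of Cxcl1, Cxcl2 and Cxcl3 are shown because the 3 genes lie in 1 cluster on chromosome 5 and were each called higher. Each sequence is the 250 bases before the transcription start, 5′ to 3′ on the plus strand of GRCm38.p6 from RefSeq, and capitals mark matches to GGGNNTTTC, an NF-kB motif, on either strand.
Cxcl1, chr5:90890995-90891244, plus strand: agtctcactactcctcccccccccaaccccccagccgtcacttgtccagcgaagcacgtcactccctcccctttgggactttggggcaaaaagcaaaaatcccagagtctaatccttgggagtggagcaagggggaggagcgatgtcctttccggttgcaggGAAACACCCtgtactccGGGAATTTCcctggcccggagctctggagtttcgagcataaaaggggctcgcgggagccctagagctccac
Cxcl2, chr5:90903649-90903898, plus strand: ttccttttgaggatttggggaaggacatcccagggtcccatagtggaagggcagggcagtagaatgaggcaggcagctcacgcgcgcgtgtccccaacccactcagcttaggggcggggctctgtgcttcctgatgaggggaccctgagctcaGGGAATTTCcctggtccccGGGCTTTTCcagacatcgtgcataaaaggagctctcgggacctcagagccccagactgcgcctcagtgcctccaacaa
Cxcl3, chr5:90785851-90786100, plus strand: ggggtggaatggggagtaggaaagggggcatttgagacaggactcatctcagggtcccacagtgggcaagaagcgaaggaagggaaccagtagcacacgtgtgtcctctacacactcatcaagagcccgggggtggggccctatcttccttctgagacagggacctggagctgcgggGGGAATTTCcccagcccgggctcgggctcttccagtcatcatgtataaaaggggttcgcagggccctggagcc
Cxcl1 and Cxcl2 hold 2 matches each, starting 88 and 71 bases before the start in Cxcl1 and 97 and 78 bases before it in Cxcl2, and Cxcl3 holds 1 match, 73 bases before the start. A match is a stretch of letters and not a measured binding site.

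CC chemokines, which draw monocytes, macrophages and lymphocytes, were called higher in 9 of 17 listed genes, and none was called lower. Of the 14 that passed the filter, only 4 reached the count minimum in every digit at 0 h, so most entered the test through their counts at 12 h. Ccl2, the main monocyte attractant, had 2.49, 2.64 and 0.74 normalized counts at 0 h and 209, 239.9 and 385 at 12 h (log2 fold change 7.10 ± 0.46 (SE), edgeR adjusted p = 0.00023). Ccl3 had 3.73, 1.98 and 0 and 82.0, 67.3 and 143 (log2 fold change 5.75 ± 0.74 (SE), edgeR adjusted p = 0.0027). Ccl4 was at 0 in every digit at 0 h and at 143, 80.5 and 214 at 12 h, at least 39.1-fold higher (edgeR adjusted p = 0.0016). The dermal chemokine Ccl11 showed overlapping digits, with 114, 48.2 and 46.4 at 0 h and 8.48, 47.8 and 15.9 at 12 h (log2 fold change -1.47 ± 0.65 (SE), edgeR adjusted p = 0.15).

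Cytokine genes were called higher as well. Of 22 ligands listed, 13 were called higher and 7 did not pass the filter, while 5 of the 7 that reached the count minimum at 0 h were called. Il24 and Il19, cytokines of the interleukin 10 family that act on epithelial cells, were at 0 in all digits at 0 h. Il24 reached 202, 141 and 179 normalized counts at 12 h, at least 46.6-fold higher (edgeR adjusted p = 0.00055), and Il19 reached 77.8, 74.3 and 79.3, at least 20.7-fold higher (edgeR adjusted p = 0.0013). The granulocyte growth factor Csf3 reached 42.4, 31.0 and 72.7 from 0, at least 13.1-fold higher (edgeR adjusted p = 0.0048). Tnf, a primary inflammatory cytokine, reached 45.2, 29.2 and 38.3 from 0, at least 10.1-fold higher (edgeR adjusted p = 0.0047). By contrast Il18 had 173, 186 and 146 at 0 h and 284, 172 and 148 at 12 h, with overlapping digits (log2 fold change 0.26 ± 0.27 (SE), edgeR adjusted p = 0.54).

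Receptors for these signals changed in part. All 18 listed cytokine receptors passed the filter and 9 were called higher, with none lower. Il1rl1 encodes the receptor of interleukin 33 and had 28.6, 9.25 and 15.5 normalized counts at 0 h and 1134, 1431 and 2266 at 12 h (log2 fold change 6.58 ± 0.45 (SE), edgeR adjusted p = 0.00028). Csf2rb, the shared beta chain of the receptors for Csf2, interleukin 3 and interleukin 5, had 78.3, 27.1 and 12.5 and 349, 286 and 424 (log2 fold change 3.23 ± 0.56 (SE), edgeR adjusted p = 0.0085). Il1r2, a decoy receptor that takes up interleukin 1, went from 99.4, 80.6 and 91.2 to 780.5, 358 and 664 (log2 fold change 2.73 ± 0.30 (SE), edgeR adjusted p = 0.0013), and Il4ra went from 190.1, 171 and 194 to 1588, 1017 and 985 (log2 fold change 2.69 ± 0.22 (SE), edgeR adjusted p = 0.00055). Il6st, the signaling chain shared by the interleukin 6 family, had overlapping digits, with 1599, 978 and 1088 at 0 h and 1322, 1949 and 1715 at 12 h (log2 fold change 0.45 ± 0.24 (SE), edgeR adjusted p = 0.22).

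Genes of neutrophils were among the largest rises, although several genes of the list were at or near 0 counts at 12 h. Of 18 listed neutrophil genes 11 passed the filter and were called higher, and only 4 of these reached the count minimum in every digit at 0 h. S100a8, a subunit of calprotectin, had 3 counts in all at 0 h and 558, 251 and 496 normalized counts at 12 h, a ratio of 498 (95% interval 170.0 to 2419) (edgeR adjusted p = 0.00033). Clec4e, a receptor for microbial and dead-cell lipids, had 1 count at 0 h and 248.8, 139 and 214 normalized counts at 12 h, a ratio of 702 (95% interval 125 to 27770.0). Trem1, which amplifies innate signaling, went from 6.21, 0 and 2.21 to 449.6, 209 and 485 (log2 fold change 7.31 ± 0.71 (SE), edgeR adjusted p = 0.00085). Fpr2, a formyl peptide receptor, went from 0 to 76.3, 11.5 and 25.1, at least 10.1-fold higher (edgeR adjusted p = 0.015). Ly6g and Elane were at 0 expected counts in all 3 digits at 12 h, Mpo was at 0, 0 and 1, and Ltf (lactoferrin) at 0, 10 and 16. The listed genes together took 0.00172% to 0.0037% of the counts at 0 h and 0.0371% to 0.0693% at 12 h. In these bulk libraries, more cells of a type and more RNA per cell cannot be told apart.

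Markers of macrophages were called higher in part. Of 16 listed, 15 passed the filter, 3 were called higher (Itgam, Ccr2 and Fcgr1) and none lower, beside 6.76% called higher over all genes tested. Of the 3 called, 2 reached the count minimum in every digit at 0 h. The summed share of counts of the list was 0.0368% to 0.044% at 0 h and 0.0419% to 0.0562% at 12 h. Fcgr1 had 0, 3.97 and 6.62 normalized counts at 0 h and 53.7, 24.8 and 42.3 at 12 h. The integrin Itgam, which neutrophils carry too, had 129, 86.6 and 111 normalized counts at 0 h and 397, 271 and 379 at 12 h (log2 fold change 1.68 ± 0.24 (SE), edgeR adjusted p = 0.0039). The monocyte chemokine receptor Ccr2 had 11.2, 31.7 and 30.2 and 105, 69.0 and 159 (log2 fold change 2.14 ± 0.47 (SE), edgeR adjusted p = 0.018), a call lost under 8 of 17 alternative settings. C1qa, a complement subunit of resident macrophages, had 124, 102 and 75.8 at 0 h and 21.2, 70.8 and 84.6 at 12 h, with overlapping digits (log2 fold change -0.76 ± 0.46 (SE), edgeR adjusted p = 0.28). All 7 listed MHC class II genes passed the filter and none was called, at a median log2 fold change of 0.36.

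Sensors of microbes and damage were called higher in 5 of 15 listed genes, of which 11 were tested, and 3 of the 5 were among the 6 that reached the count minimum in every digit at 0 h. Nlrp3, the sensor of an inflammasome, had 16.2, 0.66 and 9.57 normalized counts at 0 h and 803, 363 and 739 at 12 h (log2 fold change 6.32 ± 0.67 (SE), edgeR adjusted p = 0.0013). Cd14, which presents lipopolysaccharide to its receptor, had 78.3, 20.5 and 6.62 and 1129.7, 470.0 and 952 (log2 fold change 4.71 ± 0.74 (SE), edgeR adjusted p = 0.0059). Nod2, a sensor of bacterial cell wall, had 53.4, 54.2 and 50.0 and 325, 289 and 292 (log2 fold change 2.52 ± 0.19 (SE), edgeR adjusted p = 0.00042). The values of these 3 genes did not overlap between groups, whereas Tlr3, a sensor of double-stranded RNA, had 96.9, 50.9 and 80.9 at 0 h and 45.2, 72.6 and 31.7 at 12 h (log2 fold change -0.59 ± 0.40 (SE), edgeR adjusted p = 0.33).

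NF-kB subunits and the feedback genes of this pathway were called higher in 12 of 18 listed genes, 17 of which passed the filter, at a median log2 fold change of 1.14 over those tested. Bcl3, an atypical inhibitor of the IkB family that acts in the nucleus, had 29.8, 20.5 and 28.0 normalized counts at 0 h and 372, 344 and 298 at 12 h (log2 fold change 3.70 ± 0.24 (SE), edgeR adjusted p = 0.00023). Socs3, a feedback inhibitor of cytokine signaling, had 372, 126 and 71.4 and 960.0, 990.4 and 1254 (log2 fold change 2.52 ± 0.53 (SE), edgeR adjusted p = 0.016). Nfkbia, the classical IkB, had 591, 592 and 552 at 0 h and 952, 887 and 1074 at 12 h, so that its groups did not overlap and its change passed the adjusted p but not the 2-fold threshold (log2 fold change 0.75 ± 0.15 (SE), edgeR adjusted p = 0.013). Tnfaip3, the deubiquitinase A20, had 113, 26.4 and 28.0 and 263, 135 and 276 (log2 fold change 2.05 ± 0.58 (SE), edgeR adjusted p = 0.043), and this call was lost under 10 of 17 alternative settings. Against the 0 h digits dated 20 July 2015, 7 of the list were called higher in place of 12.

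Genes of prostaglandin synthesis rose in part. Of 16 listed prostaglandin and leukotriene genes 3 were called higher (Ptgs2, Ptges and Ptgis) and none lower. Ptgs2, the inducible cyclooxygenase, had 198, 42.3 and 20.6 normalized counts at 0 h and 1728, 2008 and 3661 at 12 h (log2 fold change 4.88 ± 0.80 (SE), edgeR adjusted p = 0.0066). Ptges, the inducible prostaglandin E synthase, had 215, 119 and 157 and 1759, 1094 and 1205 (log2 fold change 3.05 ± 0.28 (SE), edgeR adjusted p = 0.0007). The prostaglandin-degrading enzyme Hpgd overlapped between groups, with 722, 377 and 464 at 0 h and 803, 378 and 549 at 12 h (log2 fold change 0.15 ± 0.32 (SE), edgeR adjusted p = 0.77).

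Interferon-stimulated genes were a smaller group, with 4 of 22 listed genes called higher and none lower, beside 6.76% called higher over all genes. Of the 19 tested, 8 did not reach the count minimum in every digit at 0 h. Only 1 of the 4 called was among the 11 that did. The 4 are Isg15, Oas2, Oas3 and Oasl2. Isg15, a ubiquitin-like modifier, had 3.73, 7.93 and 8.09 normalized counts at 0 h and 124, 17.7 and 38.3 at 12 h (log2 fold change 3.11 ± 0.78 (SE), edgeR adjusted p = 0.029), and digit 1 at 12 h lay far above the other digits. The 4 calls were each lost under 9 of 17 alternative settings. Irf7, a transcription factor of the interferon response, was not called, with 23.6, 15.2 and 29.4 at 0 h and 103, 33.6 and 34.4 at 12 h (log2 fold change 1.32 ± 0.55 (SE), edgeR adjusted p = 0.13).

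Immediate early genes went in both directions. Of 20 listed, 3 were called higher (Fosl1, Nr4a3 and Myc) and 4 lower (Fosb, Jun, Jund and Klf4). The call of Klf4 was lost under 9 of 17 alternative settings. Fosl1, an AP-1 subunit, had 69.6, 15.2 and 29.4 normalized counts at 0 h and 499, 414 and 496 at 12 h (log2 fold change 3.69 ± 0.47 (SE), edgeR adjusted p = 0.0027). The AP-1 subunit Jun had 3453, 2139 and 1757 and 660.3, 618 and 629 (log2 fold change -1.95 ± 0.26 (SE), edgeR adjusted p = 0.0031). Fosb had 5825, 1060.2 and 594 at 0 h and 198, 290.3 and 268 at 12 h (log2 fold change -3.30 ± 0.78 (SE), edgeR adjusted p = 0.024), where digit 1 at 0 h was far above digits 2 and 3, and its call was lost under 7 of 17 alternative settings. Fos itself had 10565, 2373 and 1018 and 1131, 973 and 1587, with overlapping digits (log2 fold change -1.92 ± 0.73 (SE), edgeR adjusted p = 0.1). Without digit 1 at 0 h, 7 members were called higher and 4 lower, and against the 0 h digits dated 20 July 2015, 2 were called higher and 8 lower, so the balance within this group turned on the digits used at 0 h.

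Keratins of activated keratinocytes rose. Of 17 listed epidermal keratins 4 were called higher, which are Krt6a, Krt6b, Krt16 and Krt17, which wounded epidermis is known to express. Krt6a (ENSMUSG00000058354, chr15:101689910-101694307, minus strand) had 5712, 6175 and 4808 normalized counts at 0 h and 105218, 49903 and 61861 at 12 h (log2 fold change 3.70 ± 0.34 (SE), edgeR adjusted p = 0.00074). Krt16, its partner in the filament, had 2389, 3858 and 3251 and 78431, 41439 and 48996 (log2 fold change 4.15 ± 0.35 (SE), edgeR adjusted p = 0.00055). Krt6b had 1039, 2808 and 2051 and 56509, 25568 and 31691 (log2 fold change 4.27 ± 0.47 (SE), edgeR adjusted p = 0.0015), and Krt17 had 1459, 691 and 1045 and 20145, 8438 and 9169.9 (log2 fold change 3.56 ± 0.43 (SE), edgeR adjusted p = 0.0023). In each of the 4 genes the lowest digit at 12 h exceeded the highest digit at 0 h. On the per-length scale of normalized TPM, Krt6a reached 7865 ± 3031 (mean ± SD) at 12 h from 631 ± 78.6 at 0 h.

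Other epidermal keratins were lower or not called. Krt1, the keratin of differentiating suprabasal cells, had 74519.5, 237565 and 204693 normalized counts at 0 h and 56815, 58352 and 48038 at 12 h (log2 fold change -1.66 ± 0.42 (SE), edgeR adjusted p = 0.03), but this call was lost under 12 of 17 alternative settings, and digit 1 at 0 h was closest to the 12 h digits. Its partner Krt10 had 90909, 189039 and 173333 and 94912, 96973 and 69728, with overlapping digits (log2 fold change -0.79 ± 0.33 (SE), edgeR adjusted p = 0.13). Krt15, a keratin of basal cells, had 885, 1146 and 2080.3 and 250.3, 166 and 587 (log2 fold change -2.04 ± 0.49 (SE), edgeR adjusted p = 0.025), a call lost under 9 of 17 settings.

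Genes of the cornified envelope rose in part. Of 29 listed genes of this envelope, the protein shell of dead keratinocytes, 13 were called higher and none lower, all of them small proline-rich (Sprr) or late cornified envelope 3 (Lce3) genes. Of the 27 tested, 20 reached the count minimum in every digit at 0 h, and 6 of the 13 called genes were among these. Lce3b went from 0 in every digit to 382, 158 and 209 normalized counts, at least 67.0-fold higher (edgeR adjusted p = 0.001). Sprr2f went from 0 to 158, 29.2 and 70.1, at least 23.04-fold higher (edgeR adjusted p = 0.0066). Sprr2e had 1 count at 0 h and 120.2, 86.7 and 89.9 normalized counts at 12 h, a ratio of 356 (95% interval 63.3 to 14110.0). The Sprr2 genes are near-identical copies, and reads may be split among them, so the values of single members are uncertain. Hrnr, a large repeat protein of the normal cornified layer, had 31190.5, 55865 and 46948 and 40176, 48972 and 23359, with overlapping digits (log2 fold change -0.25 ± 0.34 (SE), edgeR adjusted p = 0.63), and Flg (filaggrin) had 15536, 60772 and 69456 and 22541, 22494 and 12234 (log2 fold change -1.35 ± 0.52 (SE), edgeR adjusted p = 0.1).

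The hard keratins of nail and hair depended on the digits used at 0 h. Of 13 listed, 2 were called higher and 1 lower. Krt36 had 1574, 390.0 and 2253 normalized counts at 0 h and 11645, 6518 and 7409 at 12 h (log2 fold change 2.60 ± 0.57 (SE), edgeR adjusted p = 0.018), and Krt84 had 1625, 414 and 2857 and 12506, 8135 and 8448 (log2 fold change 2.57 ± 0.59 (SE), edgeR adjusted p = 0.022). These calls were lost under 6 of 17 and 7 of 17 alternative settings. Krt81 had 8971, 201 and 443 at 0 h and 2047, 2407 and 1022 at 12 h, where digit 1 at 0 h was above and digits 2 and 3 were below all digits at 12 h (log2 fold change -0.81 ± 1.15 (SE), edgeR adjusted p = 0.65). Without digit 1 at 0 h, 6 hard keratins were called higher, and against the 0 h digits dated 20 July 2015 none was.

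**Figure D3:**
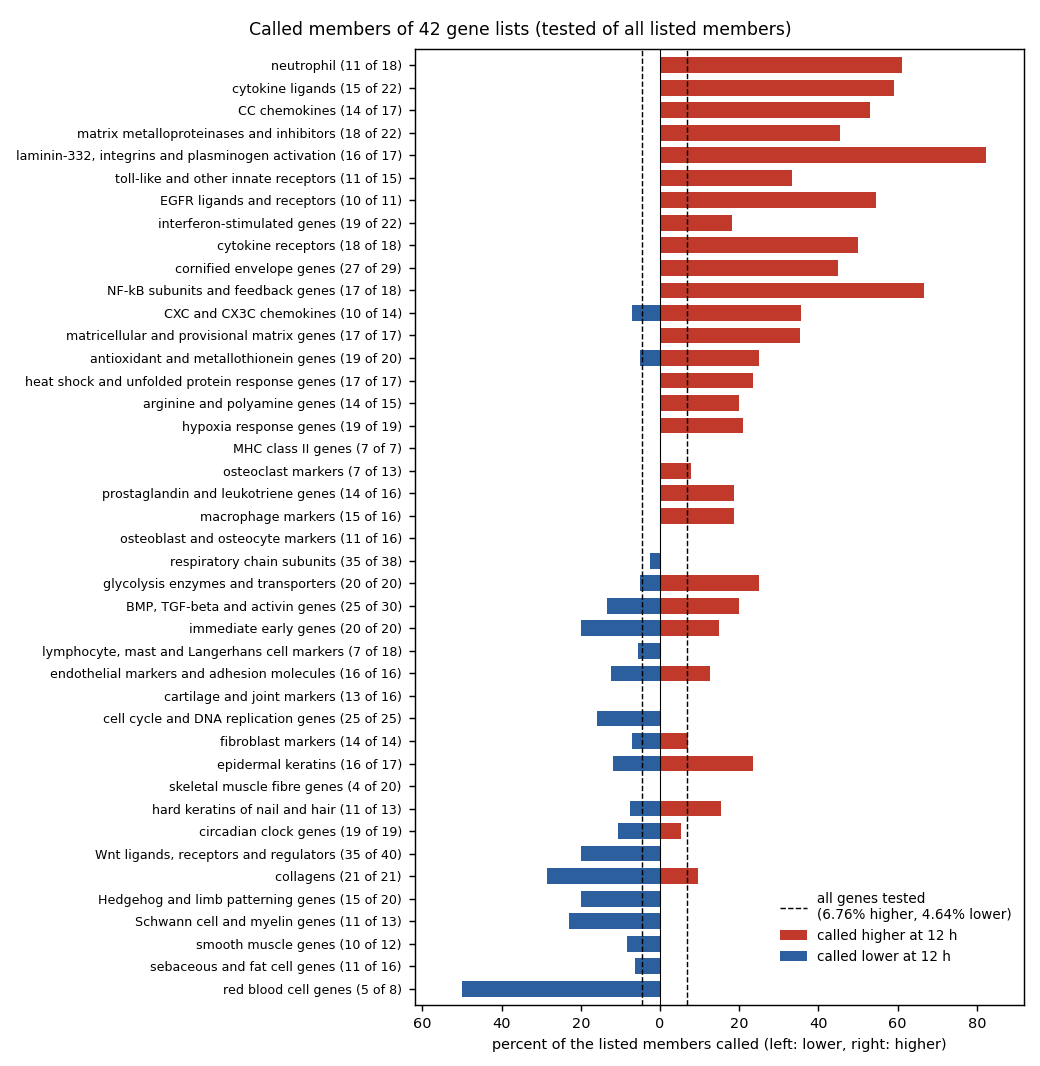
Percent of all listed members called higher (red, right) or lower (blue, left) at 12 h in 42 gene lists, ordered by the median log2 fold change of their tested members, with the number tested of all members in brackets. Dashed lines mark the 6.76% and 4.64% called over all genes tested, and 14 of 17 genes for laminin, integrins and plasminogen activation form the longest red bar.

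Genes of keratinocyte attachment, migration and pericellular proteolysis had the highest share of listed members called higher among the 42 lists. Among tested members alone, the neutrophil list had 11 of 11 called, but only 4 of these 11 reached the count minimum in every digit at 0 h. The rest entered the test through their counts at 12 h, so that share cannot be ranked against the others. Of 17 listed genes for laminin-332, integrins and plasminogen activation, 16 passed the filter, each reached the count minimum in every digit at 0 h, and 14 were called higher, at a median log2 fold change of 1.98. Plaur, the receptor of urokinase, had 37.3, 21.8 and 36.8 normalized counts at 0 h and 1048, 824 and 1354 at 12 h (log2 fold change 5.09 ± 0.29 (SE), edgeR adjusted p = 0.00019). Serpinb2, an inhibitor of plasminogen activation, had 956, 876 and 681 and 11013, 5708 and 6717 (log2 fold change 3.22 ± 0.30 (SE), edgeR adjusted p = 0.00074). The 2 tested members that were not called were Itgav and Plat. Plat, the tissue-type activator, had overlapping digits with 85.7, 46.9 and 47.1 at 0 h and 77.8, 68.2 and 87.3 at 12 h (log2 fold change 0.39 ± 0.33 (SE), edgeR adjusted p = 0.44).

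Ligands of the epidermal growth factor receptor, which drive keratinocyte migration and division, rose next to it. Of 11 listed ligands and receptors 6 were called higher and none lower, at a median log2 fold change of 1.29 over the 10 tested. Epgn (epigen) had 153, 126 and 113 normalized counts at 0 h and 2422, 1509 and 1662 at 12 h (log2 fold change 3.84 ± 0.25 (SE), edgeR adjusted p = 0.00023). Hbegf had 394, 102 and 95.7 and 1675, 1279 and 1673 (log2 fold change 2.99 ± 0.53 (SE), edgeR adjusted p = 0.0091), and Tgfa had 89.5, 68.7 and 89.8 and 516, 392.1 and 477 (log2 fold change 2.48 ± 0.20 (SE), edgeR adjusted p = 0.00055). Ereg (epiregulin) had 974, 1557 and 1232 and 1077, 1469 and 1159.6, so its groups overlapped (log2 fold change -0.02 ± 0.22 (SE), edgeR adjusted p = 0.95), and the receptor Erbb2 had 987, 909 and 746 and 686, 630.2 and 677 (log2 fold change -0.41 ± 0.16 (SE), edgeR adjusted p = 0.11).

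Matrix metalloproteinases and their inhibitors were called higher in 10 of 22 listed genes and lower in none, and 5 of the 13 that reached the count minimum at 0 h were among these 10. Mmp10 had 3 counts in all at 0 h and 137, 153 and 144 normalized counts at 12 h, a ratio of 179 (95% interval 60.8 to 872) (edgeR adjusted p = 0.00069). Mmp1b, an interstitial collagenase homolog, went from 0 to 91.9, 43.4 and 71.4, at least 18.5-fold higher (edgeR adjusted p = 0.0027). Mmp9, a gelatinase made by osteoclasts, neutrophils and keratinocytes, had 109, 31.1 and 27.2 and 952, 497 and 315 (log2 fold change 3.45 ± 0.61 (SE), edgeR adjusted p = 0.0089). Timp1, an inhibitor of these enzymes, rose with them, from 24.9, 5.29 and 5.15 to 464, 343 and 386 (log2 fold change 5.23 ± 0.54 (SE), edgeR adjusted p = 0.0011). The stromal members Mmp2 and Timp3 were not called. Mmp2 had 1016, 799 and 753 at 0 h and 245, 700.1 and 557 at 12 h (log2 fold change -0.77 ± 0.34 (SE), edgeR adjusted p = 0.14).

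The promoters of Mmp3, Mmp10 and Plaur are shown with the AP-1 motif TGANTCA in capitals, since these proteolysis genes were among the larger rises. Each is the 250 bases before the transcription start, 5′ to 3′ on the plus strand of GRCm38.p6 from RefSeq.
Mmp3, chr9:7445572-7445821, plus strand: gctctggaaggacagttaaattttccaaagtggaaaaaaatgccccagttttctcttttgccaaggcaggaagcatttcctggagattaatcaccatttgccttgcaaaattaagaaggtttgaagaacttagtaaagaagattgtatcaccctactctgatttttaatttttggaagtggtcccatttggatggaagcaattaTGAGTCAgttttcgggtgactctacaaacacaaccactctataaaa
Mmp10, chr9:7502092-7502341, plus strand: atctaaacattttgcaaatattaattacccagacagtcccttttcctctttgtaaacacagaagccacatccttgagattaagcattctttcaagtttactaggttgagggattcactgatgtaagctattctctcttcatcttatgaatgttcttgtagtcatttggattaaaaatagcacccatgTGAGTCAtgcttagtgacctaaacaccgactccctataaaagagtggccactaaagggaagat
Plaur, chr7:24462233-24462482, plus strand: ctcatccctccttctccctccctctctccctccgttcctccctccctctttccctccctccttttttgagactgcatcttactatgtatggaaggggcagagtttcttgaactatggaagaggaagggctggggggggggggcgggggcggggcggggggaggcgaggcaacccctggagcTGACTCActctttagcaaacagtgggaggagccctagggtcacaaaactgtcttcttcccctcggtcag
The match began 46 bases before the start in Mmp3, 63 in Mmp10 and 69 in Plaur.

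Over all genes with a promoter in the RefSeq table, 10053 of the 13075 tested, 6 motifs were searched on both strands from 250 bases before to 50 after the first start listed. TGANTCA was present in 11.2% of the 654 promoters of genes called higher, 5.21% of the 461 of genes called lower and 5.55% of all. GGGNNTTTC was present in 6.27%, 3.47% and 4.16%, and the TATA box TATAAA in 14.7%, 8.89% and 8.05%. The E-box CACGTG (9.48%, 7.81% and 9.99%), the cAMP response element TGACGTCA (3.06%, 1.52% and 3.18%) and the CArG box bound by SRF (1.68%, 1.52% and 1.35%) were also counted. Matches of different motifs overlapped in 16 promoters. These shares are descriptions with no test.

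More collagens were called lower than higher. Of 21 listed collagens 6 were called lower and 2 higher, at a median log2 fold change of -0.80. Col5a1, a fibrillar collagen that nucleates collagen I fibrils, had 1214, 976 and 1133 normalized counts at 0 h and 283, 487 and 485 at 12 h (log2 fold change -1.40 ± 0.23 (SE), edgeR adjusted p = 0.0066). Col7a1, the anchoring fibril collagen below the epidermis, had 2539.8, 2637 and 3390.2 and 1118, 1221 and 1382 (log2 fold change -1.20 ± 0.19 (SE), edgeR adjusted p = 0.0057). Col3a1 was not called, with 12420.5, 8169 and 10784 and 4056, 6670.0 and 5720.1, and its change passed the adjusted p but not the fold threshold (log2 fold change -0.93 ± 0.25 (SE), edgeR adjusted p = 0.038). Col17a1 of the hemidesmosome was 1 of the 2 called higher, with 6056, 5582 and 5242 and 16037, 10773 and 9720.0 (log2 fold change 1.114 ± 0.24 (SE), edgeR adjusted p = 0.016), a call lost under 10 of 17 alternative settings. The other was Col6a3, whose call was lost under 13 of 17, DESeq2 among them.

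Among 17 matricellular and provisional matrix genes 6 were called higher and none lower. Tnc (tenascin C), a glycoprotein of healing tissue, had 200.1, 140.1 and 113 normalized counts at 0 h and 1632, 2634 and 3525 at 12 h (log2 fold change 4.11 ± 0.35 (SE), edgeR adjusted p = 0.00055). The hyaluronan synthases Has3 and Has2 were both called. Has3 had 88.2, 45.6 and 58.1 and 649, 608 and 331.9 (log2 fold change 3.07 ± 0.34 (SE), edgeR adjusted p = 0.0015), and Has2 had 60.9, 52.9 and 44.2 and 366, 222 and 374 (log2 fold change 2.61 ± 0.27 (SE), edgeR adjusted p = 0.0012). Sparc, an abundant matrix protein of bone and dermis, had overlapping digits with 5184, 3407 and 4455 at 0 h and 2387, 3670.5 and 3164 at 12 h (log2 fold change -0.50 ± 0.23 (SE), edgeR adjusted p = 0.17).

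Few markers of bone, cartilage and connective tissue were called, beside 6.76% called higher and 4.64% called lower over all genes tested. In lists this short, counts of 0 or 1 per direction cannot be told apart from those shares. None of 16 osteoblast and osteocyte markers was called, with 11 tested, and none of 16 cartilage and joint markers, with 13 tested, although without digit 1 at 0 h 1 osteoblast and 2 cartilage markers were called higher. Of 14 fibroblast markers 1 was called higher (Ly6a) and 1 lower (Clec3b), and of 13 osteoclast markers only Mmp9 was called. The calls of Ly6a and Clec3b were each lost under 6 of 17 alternative settings. The cartilage lubricant Prg4 had 5184, 996 and 2629 normalized counts at 0 h and 9856, 9429.8 and 8522 at 12 h, and did not pass the threshold (log2 fold change 1.66 ± 0.50 (SE), edgeR adjusted p = 0.051). Of 12 smooth muscle genes 1 was called lower (Synpo2, a call lost under 10 of 17 alternative settings), and of 16 sebaceous and fat cell genes 1 (Scd1). Of 18 lymphocyte, mast and Langerhans cell markers, 7 of them tested, 1 was called lower (Cd79a). None was called higher in these lists. Of the 10 tested smooth muscle genes 1 had a positive log2 fold change, and the median was -1.13. Of the 11 tested sebaceous and fat cell genes 0 did, at a median of -1.22. With no filter on low counts, or with the 0 h digits that share the label date of the 12 h digits, 3 smooth muscle genes were called lower. Without digit 1 at 0 h, 1 was. Skeletal muscle fibre genes were near the detection limit, since 4 of 20 passed the filter and none was called. Myh4, a fast myosin, was at 0 expected counts in all 3 digits at 12 h.

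Vessel and nerve genes were mixed or lower. Of 16 endothelial genes 2 were called higher, the adhesion molecules Selp and Icam1 that hold leukocytes on the vessel wall, and 2 lower, Vwf and Cldn5. Over all genes tested 6.76% were called higher and 4.64% lower. Selp (P-selectin) had 91.9, 22.5 and 29.4 normalized counts at 0 h and 438, 662 and 644 at 12 h (log2 fold change 3.66 ± 0.50 (SE), edgeR adjusted p = 0.0033). Cldn5, a tight junction protein of endothelium, had 94.4, 68.1 and 55.2 and 15.6, 26.6 and 22.5 (log2 fold change -1.73 ± 0.38 (SE), edgeR adjusted p = 0.019). Pecam1, a general endothelial marker, overlapped between groups with 659, 316 and 386 and 254, 451 and 460.1 (log2 fold change -0.22 ± 0.32 (SE), edgeR adjusted p = 0.67). Of 13 Schwann cell and myelin genes 3 were called lower and none higher, and their summed share of counts overlapped between groups, with 0.0184% to 0.0356% at 0 h and 0.00932% to 0.0214% at 12 h. Cnp, an enzyme of myelin-forming cells, had 144, 60.1 and 64.0 and 25.4, 31.9 and 30.4 (log2 fold change -1.59 ± 0.42 (SE), edgeR adjusted p = 0.034), and its call was lost under 13 of 17 alternative settings, among them each fit that left out 1 digit. Without digit 1 at 0 h, 1 of this list was called lower.

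Genes of blood cells were lower at 12 h. Of 8 red blood cell genes listed 5 passed the filter and 4 were called lower, with a summed share of 0.105% to 0.153% of counts at 0 h and 0.0137% to 0.0442% at 12 h. Hba-a2 (alpha globin) had 5606, 3760.1 and 3056 normalized counts at 0 h and 573, 627 and 1464 at 12 h (log2 fold change -2.22 ± 0.40 (SE), edgeR adjusted p = 0.0098). Alas2, the erythroid enzyme of heme synthesis, had 189, 192 and 188 and 46.7, 21.2 and 76.7 (log2 fold change -2.00 ± 0.41 (SE), edgeR adjusted p = 0.015). The globin genes are near-identical copies, so the split between members is uncertain. Of 13 platelet and megakaryocyte genes, a list added after values were seen, 5 were called lower, and digit 1 at 0 h was far above the other digits in their summed share. Ppbp (platelet basic protein) had 1549, 247 and 134 at 0 h and 50.9, 21.2 and 47.6 at 12 h (log2 fold change -4.03 ± 0.93 (SE), edgeR adjusted p = 0.022), and its call was lost under 6 of 17 alternative settings, among them each fit that left out 1 digit at 12 h. Whether the amount of blood in the sample took part in other changes was not tested.

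**Figure D4:**
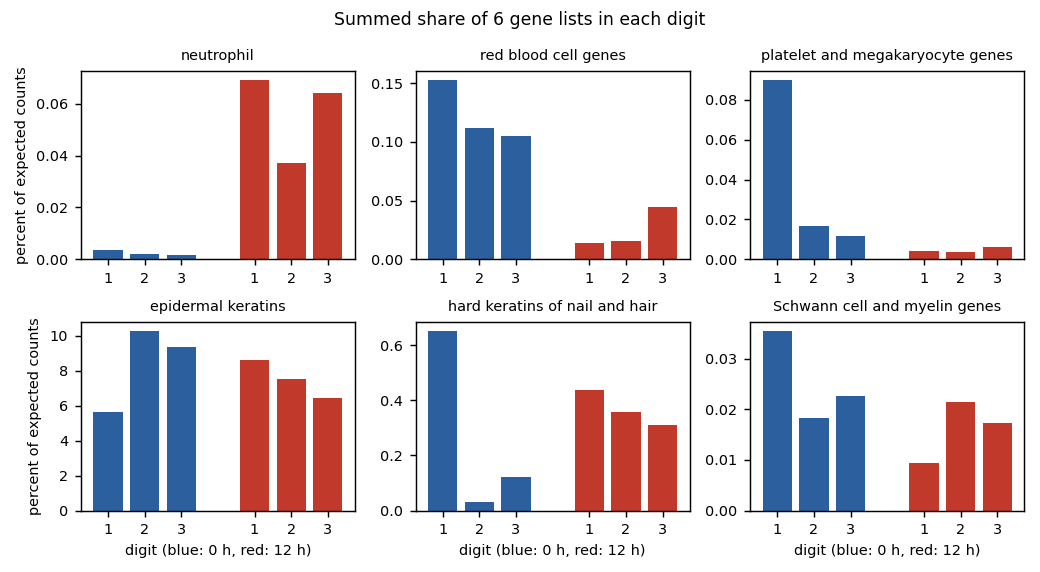
Summed share of the expected counts (percent, bars starting at 0) of 6 gene lists in each of the 3 digits at 0 h (blue) and 12 h (red). Neutrophil genes are higher and red blood cell genes lower in every digit at 12 h, and digit 1 at 0 h stands apart in platelet genes and hard keratins.

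Wnt pathway genes changed only downward among those called. Of 40 listed ligands, receptors and regulators 8 were called lower and none higher, at a median log2 fold change of -0.80 over the 35 tested. Dkk2, a secreted Wnt regulator of dermis, had 72.1, 153 and 152 normalized counts at 0 h and 12.7, 18.6 and 52.9 at 12 h (log2 fold change -2.17 ± 0.54 (SE), edgeR adjusted p = 0.028), a call lost under 8 of 17 alternative settings. Rspo2, an amplifier of Wnt signaling, had 24.9, 17.8 and 17.7 and 0, 2.66 and 0, with 3 counts in all at 12 h (a ratio of 16.7 (95% interval 5.49 to 82.9) for 0 h over 12 h), and its call was lost under 6 of 15 settings. Wnt4 had overlapping digits, with 482, 737 and 619.6 at 0 h and 797, 546 and 611 at 12 h (log2 fold change 0.09 ± 0.21 (SE), edgeR adjusted p = 0.8). The ligand Wnt5a had 465, 853 and 743 and 161, 471 and 364 and was not called (log2 fold change -1.05 ± 0.37 (SE), edgeR adjusted p = 0.085).

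Of 30 BMP, TGF-beta and activin genes 6 were called higher and 4 lower, and 4 of the 6 reached the count minimum in every digit at 0 h. Inhba, the subunit of activin A, had 26.1, 65.4 and 79.5 normalized counts at 0 h and 568, 352 and 643 at 12 h (log2 fold change 3.16 ± 0.40 (SE), edgeR adjusted p = 0.0025). Fst (follistatin), which binds and blocks activins, rose too, from 343, 165 and 227 to 1212, 1015 and 1575 (log2 fold change 2.38 ± 0.29 (SE), edgeR adjusted p = 0.0023). Gdf10, a BMP family ligand, fell from 255, 175 and 170.0 to 15.6, 47.8 and 17.2 (log2 fold change -2.84 ± 0.44 (SE), edgeR adjusted p = 0.0056). Tgfb2 and Tgfb3 were called lower, and Tgfb2 had 281, 176 and 289.9 and 91.9, 129 and 115 (log2 fold change -1.15 ± 0.26 (SE), edgeR adjusted p = 0.02). The call of Tgfb2 was lost under 8 of 17 alternative settings and that of Tgfb3 under 6 of 17. The BMP target Id1 overlapped between groups with 282, 477 and 397 and 429.8, 442 and 559 (log2 fold change 0.30 ± 0.22 (SE), edgeR adjusted p = 0.35).

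Hedgehog and limb patterning genes were called lower in 4 of 20 listed genes and higher in none, with 15 tested at a median log2 fold change of -1.0. Hhip, a target and inhibitor of hedgehog signaling, had 184, 173 and 123 normalized counts at 0 h and 1.41, 28.3 and 3.97 at 12 h (log2 fold change -3.67 ± 0.72 (SE), edgeR adjusted p = 0.013). Msx2, a transcription factor of nail and digit tip mesenchyme, had 95.7, 72.7 and 102 and 17.0, 40.7 and 30.4 (log2 fold change -1.59 ± 0.38 (SE), edgeR adjusted p = 0.024), and Dlx3 had 225, 311 and 403 and 133, 164 and 149 (log2 fold change -1.07 ± 0.24 (SE), edgeR adjusted p = 0.021). The calls of Msx2 and Dlx3 were lost under 6 of 17 and 8 of 17 alternative settings. Hoxc13, a regulator of hair and nail keratins, overlapped between groups with 299, 269.7 and 440.1 and 304, 311 and 456 (log2 fold change 0.08 ± 0.25 (SE), edgeR adjusted p = 0.84). Shh was at 0 expected counts in all 6 digits.

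Of 25 listed cell cycle and DNA replication genes 4 were called lower and none higher, at a median log2 fold change of -0.31. Mki67, a marker of dividing cells, had 1612, 2061 and 1815 normalized counts at 0 h and 663, 748 and 920.3 at 12 h (log2 fold change -1.24 ± 0.19 (SE), edgeR adjusted p = 0.0053), and Birc5 (survivin) had 408, 596 and 574 and 134, 249.6 and 239 (log2 fold change -1.34 ± 0.26 (SE), edgeR adjusted p = 0.013), and the call of Birc5 was lost under 6 of 17 alternative settings. The replication clamp Pcna had overlapping digits, with 495, 509.6 and 517 and 475, 449.6 and 586 (log2 fold change -0.01 ± 0.15 (SE), edgeR adjusted p = 0.97), as had Ccnd1, with 1349, 1330.5 and 1377 and 1116, 1415 and 1179 (log2 fold change -0.13 ± 0.16 (SE), edgeR adjusted p = 0.6).

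Several genes of glucose uptake and lactate transport rose. Of 20 glycolysis enzymes and transporters 5 were called higher and 1 lower, and 3 of the 5 reached the count minimum in every digit at 0 h. Hk2, the inducible hexokinase, had 610.1, 547 and 611 normalized counts at 0 h and 1544, 2027 and 1618 at 12 h (log2 fold change 1.55 ± 0.17 (SE), edgeR adjusted p = 0.0015). The lactate exporter Slc16a3 had 7.46, 12.6 and 17.7 and 259, 100.02 and 131 (log2 fold change 3.64 ± 0.48 (SE), edgeR adjusted p = 0.0028). The enzymes Pkm and Eno1 overlapped between groups, Pkm with 11905, 7485 and 10576 and 7756, 11669.9 and 9257 (log2 fold change -0.06 ± 0.25 (SE), edgeR adjusted p = 0.88). Pfkm, the muscle form of phosphofructokinase, had 297, 298 and 359.8 and 41.0, 127 and 99.2 (log2 fold change -1.82 ± 0.36 (SE), edgeR adjusted p = 0.013) and was the 1 gene called lower. Of 38 respiratory chain subunits 35 passed the filter and 1 was called, Ndufb3, at a median log2 fold change of 0.02.

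Hypoxia response genes were called higher in 4 of 19 listed and lower in none, beside 6.76% called higher over all genes tested. Angptl4, a secreted lipase inhibitor, had 13.7, 3.30 and 10.3 normalized counts at 0 h and 126, 174 and 126 at 12 h (log2 fold change 4.02 ± 0.48 (SE), edgeR adjusted p = 0.002), and Adm (adrenomedullin) had 79.5, 42.3 and 80.9 and 195, 178 and 205 (log2 fold change 1.52 ± 0.29 (SE), edgeR adjusted p = 0.011). Hif1a, whose protein is regulated after translation, had overlapping digits with 3392, 2227 and 2898 and 3044, 3740.4 and 3125 (log2 fold change 0.22 ± 0.21 (SE), edgeR adjusted p = 0.49).

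Genes of antioxidant defence and protein folding rose in part. Of 20 antioxidant and metallothionein genes 5 were called higher and 1 lower. Hmox1 (heme oxygenase) had 127, 136 and 183 normalized counts at 0 h and 937, 639 and 1113 at 12 h (log2 fold change 2.59 ± 0.25 (SE), edgeR adjusted p = 0.00085), and the cystine transporter Slc7a11 had 446, 321 and 294 and 1787, 845 and 1614 (log2 fold change 2.003 ± 0.30 (SE), edgeR adjusted p = 0.0052). Mt4, the metallothionein of squamous epithelium, was the 1 called lower, with 2270.1, 2777 and 2769 and 747, 1121 and 929.5 (log2 fold change -1.48 ± 0.20 (SE), edgeR adjusted p = 0.0034). Of 17 heat shock and unfolded protein response genes 4 were called higher. Hspa5, the chaperone of the endoplasmic reticulum, had 2151, 2637 and 2994 and 9487, 7006 and 9599.6 (log2 fold change 1.75 ± 0.22 (SE), edgeR adjusted p = 0.0025). The chaperone Calr differed strongly within the 0 h group, with 3296, 12582 and 15459 against 11966, 9075 and 8794 at 12 h (log2 fold change -0.07 ± 0.48 (SE), edgeR adjusted p = 0.93). Against the 0 h digits dated 20 July 2015, 8 of this list were called higher.

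Of 15 arginine and polyamine genes 3 were called higher and none lower, beside 6.76% called higher over all genes tested. Odc1, the rate-limiting enzyme of polyamine synthesis, had 939, 1052 and 887 normalized counts at 0 h and 3105, 3212 and 3059.7 at 12 h (log2 fold change 1.70 ± 0.16 (SE), edgeR adjusted p = 0.00085). Srm, which makes spermidine, had 121, 119.6 and 87.6 and 435, 248.7 and 352 (log2 fold change 1.66 ± 0.26 (SE), edgeR adjusted p = 0.0056). Sat1, the catabolic acetyltransferase, overlapped between groups with 1754, 2052 and 1801 and 1364, 2023 and 2139 (log2 fold change -0.02 ± 0.21 (SE), edgeR adjusted p = 0.95).

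Clock genes were examined since digits of different times may have been collected at different hours of the day. Of 19 listed 1 was called higher and 2 lower, beside 6.76% higher and 4.64% lower over all genes tested. Counts this small cannot be told apart from those shares. Dbp, an output gene of the clock, had 237, 317 and 266 normalized counts at 0 h and 60.8, 142 and 83.3 at 12 h (log2 fold change -1.50 ± 0.32 (SE), edgeR adjusted p = 0.016), and Rora had 3582, 5636 and 4744 and 1738, 2762 and 1339 (log2 fold change -1.26 ± 0.30 (SE), edgeR adjusted p = 0.024). Nfil3, which opposes Dbp at the same DNA sites, had 85.7, 24.5 and 39.0 and 157, 119 and 179.8 (log2 fold change 1.64 ± 0.45 (SE), edgeR adjusted p = 0.038), a call lost under 12 of 17 alternative settings. With the 0 h digits dated 20 July 2015, 6 clock genes were called lower, and with RLE size factors 4. The hour of day of the collections is not given in the sources used here, and its part in the comparison was not tested.

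To place 12 h among its neighbours, each time point was tested against the same 3 digits at 0 h. At 3 h no gene was called by edgeR (1362 at an unadjusted p under 0.05), at 6 h 425 were called higher and 213 lower, at 12 h 884 and 607, and at 24 h 747 and 690. These comparisons share their 0 h digits, so the counts are set side by side without a test between them. Depth differed too, since digits 1, 2 and 3 at 3 h had 5743060, 2848956 and 1468749 total expected counts. The digits at 0 h and 12 h had 4747702 to 10608244. Whether depth took part in the lack of calls at 3 h was not tested. In a direct test of 12 h against 6 h, 8 genes were called higher at 12 h, which is 0.0641% of 12482 tested, and 0% were called lower, while 1424 had an unadjusted p under 0.05. DESeq2 called 230 genes in the same comparison. The 8 genes rested on the digits used, since leaving out 1 digit at a time gave 0 to 181 calls, with 181 without digit 1 at 6 h and 0 without digit 2 or 3 at 6 h or digit 1 or 3 at 12 h. Between 12 h and 24 h, edgeR called 0% of 12745 genes higher and 0% lower, with 1206 at an unadjusted p under 0.05, and DESeq2 called 97.

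The 8 genes above 6 h were the chemokines Cxcl2 and Cxcl3, the receptor Il1rl1, the cornified envelope genes Lce3a and Lce3b, the protease inhibitor Slpi, the desmosomal cadherin Dsc2 and the glutathione transferase Gsta4. In normalized TPM (mean ± SD, n = 3), Slpi had 2.82 ± 0.796 at 0 h, 95.3 ± 2.41 at 6 h, 320.5 ± 72.8 at 12 h and 415 ± 145 at 24 h. Gsta4 had 68.5 ± 17.2, 126 ± 21.5, 396 ± 48.0 and 1018 ± 94.7 at the same times, and Cxcl3 had 0 ± 0, 3.28 ± 1.21, 52.0 ± 19.4 and 49.0 ± 42.0. Gsta4 was highest at 24 h in all 3 digits, whereas the digits of Cxcl3 at 12 h and 24 h overlapped. Slpi, an inhibitor of neutrophil elastase, had 6.21, 5.95 and 11.04 normalized counts at 0 h and 1316, 801 and 1018 at 12 h (log2 fold change 7.03 ± 0.32 (SE), edgeR adjusted p = 0.00014).

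**Figure D5:**
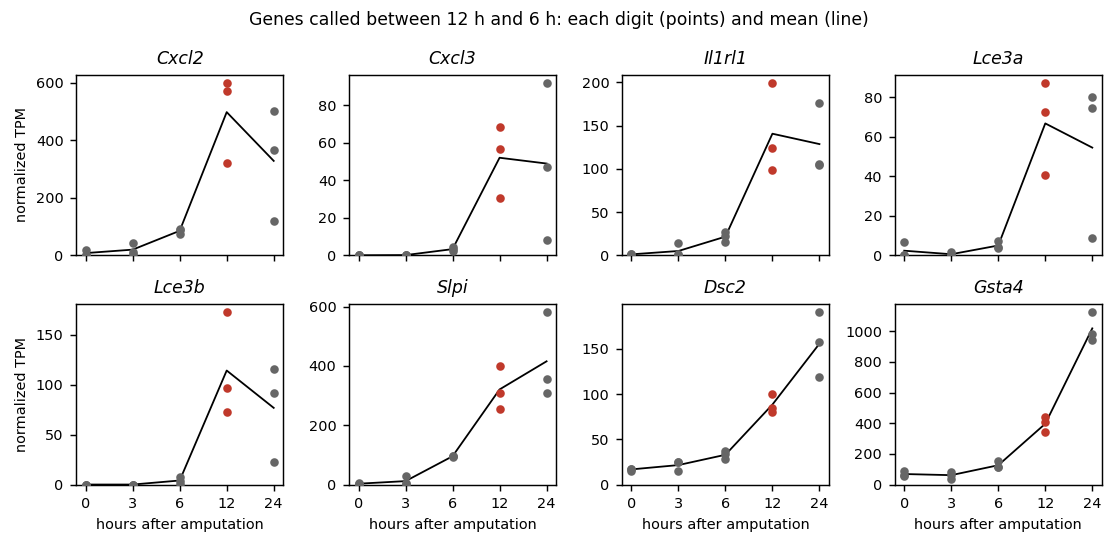
Normalized TPM (vertical axes, starting at 0) over the hours after amputation (horizontal axes, evenly spaced categories) for the 8 genes called between 12 h and 6 h, with a point for each of 3 digits per time, red at 12 h, and a line through the means. All 8 genes were picked by the test on these digits and are higher at 12 h than at 6 h in every digit. Slpi, Dsc2 and Gsta4 have their highest mean at 24 h.

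The other genes called between 12 h and 0 h did not pass the test between 6 h and 12 h, which does not show that their levels were equal. Jun had a normalized TPM of 197 ± 76.3 (mean ± SD) at 0 h, 69.1 ± 13.3 at 6 h and 48.9 ± 1.03 at 12 h, and the test between 6 h and 12 h gave an adjusted p of 0.33 (edgeR). Mki67 had 45.9 ± 4.63, 18.2 ± 4.91 and 18.8 ± 3.43 (edgeR adjusted p of 0.96 between 6 h and 12 h), then 49.1 ± 2.62 at 3 days. Hbb-bt had 178 ± 37.4 at 0 h and 3.89 ± 4.62 at 3 h. Mmp3 had 5.37 ± 2.68 at 0 h, 362 ± 279 at 6 h, 945 ± 268 at 12 h and 948 ± 233 at 24 h, with wide spread at 6 h (edgeR adjusted p of 0.3 between 6 h and 12 h).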

How the data were processed

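Wound bed RNA of mouse digits was sequenced as single-end reads of 65 bases from poly(A)-selected LM-Seq libraries. The authors mapped the reads to mouse genes of mm10 (GRCm38) with Bowtie and estimated an expected count per gene with RSEM 1.2.3, which they deposited without normalization. The signal table that the authors deposited holds TPM scaled by median-by-ratio normalization between libraries, named normalized TPM here, which corrects for gene length and served for levels over time. RSEM divides reads among near-identical genes, so single members of such families are uncertain, and whether strand was used in counting is not stated. No column was left without a sample, and 26 gene names that had turned into dates were restored from the transcript lists. The macrophage tables were not used.

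Expected counts were rounded and tested with edgeR 4.0.16 (filterByExpr, TMM, glmQLFit, glmQLFTest) in R 4.3.3 on the libraries of the 2 groups alone. Calls needed an adjusted p under 0.05 and group means, each plus 1, that differed by more than 2-fold. The study set the same limits with EBSeq, which is not installed here. The SE of a fold change is its size divided by the square root of F. Total counts were 4747702 to 10608244 per digit, which limits genes at 0 to a floor of 3 counts. Folds against a group at 0 use that floor in the smallest library of the group, and with 1 to 3 counts the ratio of pooled counts is given with an exact 95% interval. Both cover counting error only. With 3 against 3 digits an exact permutation test cannot go below p = 0.1, so the p-values come from the fit across genes. The study planned 3 mice per time point, but the labels do not state outright that digits of a group came from different mice. All labels of both groups carry Left, and the study amputated only digit 3 of each hindlimb. If Left names the hindlimb, the digits of a group came from different mice. The p-values measure the spread between these digits. Alternatives used DESeq2 1.42.0, limma 3.58.1 on log2(normalized TPM + 1) or + 0.1, other size factors, filters and thresholds, other sets of 0 h digits and fits over all digits. The fits were tested on simulated data.

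The comparison and the 42 gene lists (770 genes, of which 7 list entries were not matched and are not analysed here) were chosen with earlier results of these data known, and a platelet list was added after values were seen. Named genes are the 12 largest rises and 12 largest falls among called genes without overlap of digits, with a mean of at least 100 normalized counts in the higher group and no placeholder name, then in each list up to 4 called members per direction with the largest change and the 2 uncalled members with the highest normalized TPM, and the genes called between 12 h and 6 h or 24 h. Other genes are marked where they are named, and some genes that the rule names are not reported here. Of the 884 genes called higher, 178 did not reach the count minimum of the filter in every digit at 0 h. Places are those of GENCODE M21 (GRCm38), and promoters those of RefSeq (GRCm38.p6).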

Additional observations from a re-analysis of the deposited data

Results flagged for a closer look

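For 8 genes the change from 0 h differed between 12 h and 6 h, as tested directly between those times with edgeR. The log2 fold changes at 12 h against 6 h were 4.86 for Lce3b, 3.83 for Cxcl3, 3.73 for Lce3a, 2.74 for Il1rl1, 2.59 for Cxcl2, 1.86 for Slpi, 1.66 for Gsta4 and 1.47 for Dsc2, with adjusted p between 0.0272 and 0.0387. All 8 were higher in 3 of 3 digits at 12 h than in any digit at 6 h. They were picked by the test on these same digits, so this separation is no further support. The share of all tested genes without overlap between these times was not counted. Leaving out digit 2 or 3 at 6 h, or digit 1 or 3 at 12 h, gave 0 calls. With 3 digits per group, no single digit was tested as an outlier.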

How the results depend on the processing

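For genes called higher and lower at 12 h than at 0 h (884 and 607), DESeq2 gave 995 and 1004, RLE size factors 859 and 661, no filter on low counts 882 and 696, no fold threshold 1470 and 898, limma on log2(normalized TPM + 1) 695 and 473, with a pseudocount of 0.1 664 and 423, and without a filter 570 and 327. Intermediate digits at 0 h in place of the non-regenerative gave 889 and 693, and the 0 h digits dated 20 July 2015 gave 881 and 770. All non-regenerative digits in 1 fit gave 178 and 34, and all digits with the label period as a term 201 and 100. The cause of these differences was not tested. Leaving out 1 digit at a time gave 566 to 1096 higher and 222 to 798 lower. Between 12 h and 6 h (8 calls), DESeq2 gave 230, the fit over all non-regenerative digits 0, and leaving out 1 digit 0 to 181. Between 12 h and 24 h (0 calls), DESeq2 gave 97, and the other alternatives gave 0. Of 157 called genes named by the rule, 49 kept their call in all alternatives, 55 lost it in 1 to 5 and 53 in more than 5, and none changed direction while called. Among genes that were not called, leaving out 1 digit moved the log2 fold change of Krt81 between -1.38 and 2.50, the latter without digit 1 at 0 h and past the threshold, and limma on log2(normalized TPM + 1) gave 0.81. Calr went from -0.07 to 1.29 against the 0 h digits dated 20 July 2015, and to 1.25 with the label period as a term. Of 4033 values compared for named genes, 80 in 29 genes had the other sign, and 2 of these, the Krt81 and Calr values of 2.50 and 1.29, passed the threshold in either fit. The median log2 fold change over all genes lay between -0.09 and 0.00 in all alternatives. The labels carry no replicate numbers, but each has a tag (L1, M00 or R1) whose meaning is not stated, and the digits of 20 July 2015 share these tags between 0 h and 12 h. With the tag as a replicate block, an alternative added after seeing the data for counts of calls alone, the fit on these digits gave 831 and 753. For digits sharing a tag, the deviations from the group means correlated across genes at -0.050 to 0.063, so the tags were not taken as pairs. At these depths, a gene with a few counts in 1 group gives a fold with wide error.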

Other observations

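Outside the lists, 5 genes called higher were chosen after their values were seen. Anxa1, an annexin that limits inflammation and is abundant in epidermis, had 7716, 8486 and 7999.8 normalized counts at 0 h and 48642, 32424 and 36021 at 12 h (log2 fold change 2.27 ± 0.24 (SE), edgeR adjusted p = 0.0011). The hyaluronan receptor Cd44 had 2061, 1793 and 1521 and 8865, 6403 and 7168 (log2 fold change 2.06 ± 0.21 (SE), edgeR adjusted p = 0.0011), and the desmosomal cadherin Dsg3 had 987, 695 and 526 and 7635, 5160.1 and 6208 (log2 fold change 3.11 ± 0.29 (SE), edgeR adjusted p = 0.00073). Actb (beta actin), often used as a reference gene, had 6610.4, 4412 and 5157 and 22610.5, 15234 and 14396 (log2 fold change 1.69 ± 0.26 (SE), edgeR adjusted p = 0.0055), and every digit at 12 h was above every digit at 0 h. Hdc, the enzyme that makes histamine, had 38.5, 13.2 and 22.8 and 1468, 417 and 893 (log2 fold change 5.28 ± 0.56 (SE), edgeR adjusted p = 0.0012).

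Among the falls outside the lists, also chosen after their values were seen, Igf1 (insulin-like growth factor) had 593, 384 and 500.4 at 0 h and 42.4, 179.7 and 164 at 12 h (log2 fold change -1.92 ± 0.45 (SE), edgeR adjusted p = 0.023), and Eln (elastin) had 2527, 1933 and 1768 and 240.4, 903 and 811 (log2 fold change -1.67 ± 0.43 (SE), edgeR adjusted p = 0.032). Stmn1, a microtubule regulator of dividing cells, had 449, 820.2 and 853 and 83.4, 143 and 181 (log2 fold change -2.38 ± 0.34 (SE), edgeR adjusted p = 0.0039). Hmgn5, a nucleosome-binding protein, had 932, 5173 and 7688 and 352, 641 and 681 (log2 fold change -3.04 ± 0.67 (SE), edgeR adjusted p = 0.018), and digit 1 at 0 h was nearer to the 12 h digits than to digits 2 and 3.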
